A study of Mus musculus with 12 samples.

Results

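Methylation of CpG cytosines was examined across the Hox gene clusters in the brains of 12 mice. A CpG site was counted where it lay within the gene body, or within 2 kb on either side, of a protein-coding Hox gene (GENCODE vM21 basic annotation, mm10) and had at least 10 reads in at least 9 of the 12 libraries. Each strand of a CpG was a site of its own. By this rule 5754 of 1697478 sites were kept, in the regions of 38 genes: 10 HoxA genes on chromosome 6 with 1616 sites, 10 HoxB genes on chromosome 11 with 1283 sites, 9 HoxC genes on chromosome 15 with 1045 sites and 9 HoxD genes on chromosome 2 with 1810 sites. Since the regions overlap, 1459 sites belonged to more than 1 gene.

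The wild-type (Wt) group held 3 females and 1 male by label, and the Tg2576 (Tg) group held 4 females and 4 males. Tg2576 mice carry a transgene for human APP with the Swedish mutation under a prion promoter, and the Wt mice lack it. All animals were about 11 months old by label, and the DNA came from a mixture of dorsal hippocampus and cortex. Reduced representation bisulfite sequencing (RRBS) cuts DNA at CCGG and so collects CpG-rich fragments, and the level of a site is the percent of its reads that kept the cytosine. Bisulfite does not separate methylcytosine from hydroxymethylcytosine. The tissue is a mixture of cell types, so a change within cells and a change in the cell mixture cannot be told apart, and expression was not analysed here, so the tissue was not checked by its markers.

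Hox genes encode homeodomain transcription factors that give cells their position along the head-to-tail axis. Their order on the chromosome follows the order in which they are used along the body: the genes of the low-numbered paralogue groups act in the hindbrain, the middle groups in the neck and trunk, and the high-numbered groups in the lower trunk, the limbs and the urogenital tract. Forebrain cells descend from tissue in front of the Hox domains, where the clusters are held silent by Polycomb proteins, and CpG islands under Polycomb usually lack DNA methylation.

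The promoter with the most sites, that of Hoxd1, a hindbrain gene, shows what RRBS covered in these clusters. The 250 bases before its start hold 24 CpGs (RefSeq sequence, GRCm38.p6, CpGs in capitals):
Hoxd1 promoter, chr2:74762730-74762979, plus strand: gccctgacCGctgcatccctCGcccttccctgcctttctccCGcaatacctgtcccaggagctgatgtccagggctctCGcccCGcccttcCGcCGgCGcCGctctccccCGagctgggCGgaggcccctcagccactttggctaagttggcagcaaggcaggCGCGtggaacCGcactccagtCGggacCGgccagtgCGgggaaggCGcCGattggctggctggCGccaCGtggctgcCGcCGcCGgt
The 47 sites in these bases had levels between 0% and 5.15% and a mean of 1.38%, and none of them was called between the genotypes. Promoter sequences from RefSeq (300 bases across the start, GRCm38.p6) matched 22 of the 38 genes. They held a median of 13.5 CpGs, from 4 in Hoxd11, Hoxd4 and Hoxa9 to 45 in Hoxa13, against a median of 7 over 27025 promoters. The cut site CCGG, which reads the same on both strands, lay in 17 of the 22 (77.3%), against 52.6% of all promoters.

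The 12 libraries differed in depth and 1 of them went against its label. Coverage was summed over the listed CpG cytosines, so a read counts once at each cytosine it covers and the sum is not a number of reads. This sum was lowest for Tg female 4 (33619981) and highest for Tg female 1 (131446104). The median reads per Hox site had the same ends, at 22 and 83. The mean level over X-linked sites was 19.95% in the library labelled Wt male, near the 20.7% to 23.0% of the females and unlike the 5.50% to 5.67% of the Tg males. Sites listed on the Y chromosome, per 1000 autosomal sites, numbered 0.06959 in that library. They numbered 0.05842 to 0.1505 in the females and 0.3468 to 0.5035 in the Tg males. Comparisons adjusted for labelled sex rest on this label, and the mean level, the counts of called regions and sites and the 12 called sites described last are also given within the females. The values within the females leave out the library labelled Wt male. Of the 5754 sites, 4048 (70.4%) were covered in all 12 libraries. The 326 sites covered in just 9 libraries had a mean level of 3.45%, and the 313 sites left out at 8 libraries had a mean of 4.03%.

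The Hox clusters had little methylation at the sites covered, which were 28.4% of the CpG cytosines in the windows. The median level of the 5754 sites was 2.13%, 84.1% of the sites were below 5%, and 47 sites (0.817%) exceeded 20%. Coding exons had the lowest mean at 2.54%, followed by untranslated exons at 3.05%, introns at 3.71% and the flanks at 3.74%. Sites within 1000 bp of a Hox start had a mean of 2.55%, and sites farther away 3.95%. In any 1 library between 49.9% and 77.4% of its Hox sites had no methylated read, the highest share being in Tg female 4, the shallowest library.

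**Figure D1:**
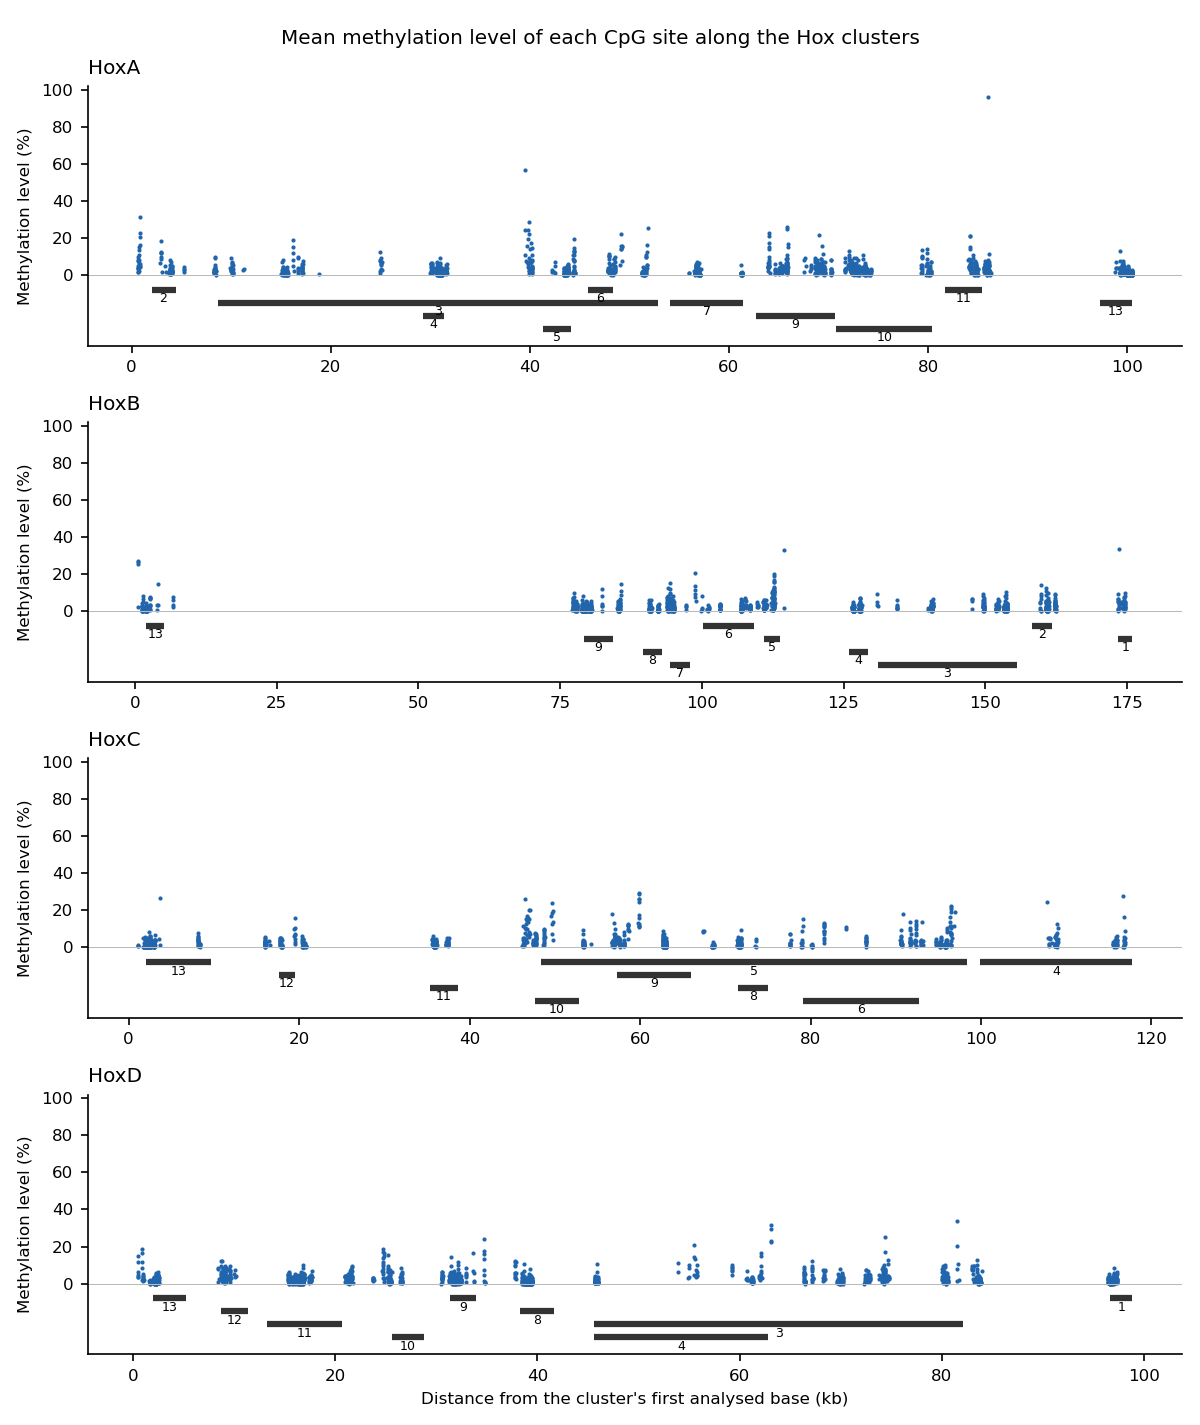
Each point is 1 CpG site, with its mean methylation level (%, linear axis) over the libraries that covered it against its distance (kb) from the first base analysed in its cluster; the bars beneath 0 are the genes, named by paralogue number. Of the 5754 points, 47 exceed 20%, and 1 site beside Hoxa11 stands at 96.1%.

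Low methylation was not limited to the starts of the genes. Over sites in gene regions and more than 1000 bp from every annotated start, the Wt females stood at 4.32%, 3.39% and 3.95%, the library labelled Wt male at 3.20%, and the Tg animals between 3.25% and 3.93% with a median of 3.62%. Other protein-coding regions, measured the same way in the same animals, ranged from 17.8% to 21.3%. The 12 Hox values thus lay far below the 12 others. The mean was 3.67% ± 0.328 (SD, n = 12) against 19.2% ± 1.03, a difference of -15.6 points that ran from -17.7 to -14.6 in single animals (lower in 12 of 12, two-sided exact paired permutation test over 4096 sign changes, p = 4.883e-04, the smallest they can give). This test, like the other paired tests below, runs over animals and does not measure the spread between genes. The size of the difference depended on how sites were chosen and weighted. With at least 20 reads per site the Hox level was 3.47% ± 0.390 (SD, n = 12) and the other level 6.14% ± 0.486, a difference of -2.67 points, and with each gene counted once they were 4.54% ± 0.623 and 40.5% ± 1.67, a difference of -35.9 points. The Hox level was lower in 12 of 12 animals under both. Over the 5 settings the Hox level lay between 3.24% and 4.54% and the other level between 6.14% and 40.5%. Sites above 20% made up 1.01% of the Hox sites away from starts and 28.7% of the others.

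CpG density, which differs between the sets, was held apart by counting the CpGs in the 201 bp around each site. With 0 to 4 CpGs, the mean level away from starts was 9.20% in the Hox regions (41 sites) and 39.3% in the others. With 5 to 9 CpGs it was 4.67% against 36.8%, with 10 to 14 CpGs 4.16% against 20.8%, and with 15 or more 2.70% against 5.03%. In each of the 4 classes the highest Hox animal was below the lowest value of the other regions, the nearest pair being 3.31% and 4.52% in the densest class. With at least 20 reads per site the Hox means were again below the others, at 4.98% against 19.2%, 4.58% against 15.1%, 4.02% against 7.93% and 2.74% against 3.02% from the sparsest class to the densest, but in the densest class the ranges over animals overlapped (2.11% to 3.45% and 2.70% to 3.40%).

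**Figure D2:**
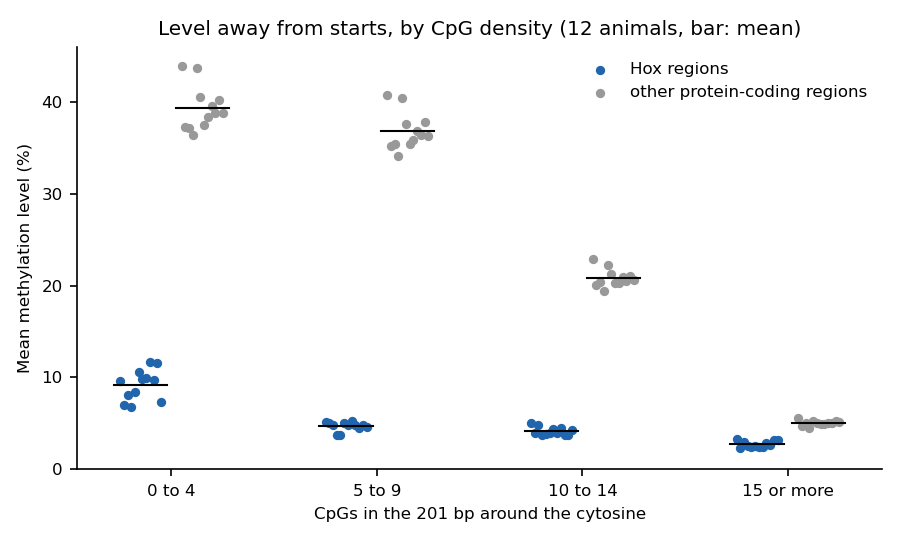
Mean methylation level (%, axis from 0) of sites over 1000 bp from every start, against the number of CpGs in the 201 bp around the cytosine; each point is 1 of 12 animals, and the bar is their mean. The Hox points lie below those of other protein-coding regions in all 4 classes, at 9.20% against 39.3% in the sparsest and 2.70% against 5.03% in the densest.

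At promoters the order was not the same. Sites within 1000 bp of a Hox start had a mean of 2.56% ± 0.159 (SD, n = 12) against 1.36% ± 0.0554 for other protein-coding promoters, higher by 1.205 points in 12 of 12 animals (same test, p = 4.883e-04). The order also depended on CpG density. With 0 to 4 CpGs in 201 bp the mean was 7.36% at Hox promoters (18 sites) and 14.4% at the others, and with 5 to 9 CpGs 4.42% against 6.15%, but with 10 to 14 CpGs it was 3.73% against 2.30%, and with 15 or more 2.10% against 0.970%. Hox promoters were thus lower in the sparse classes and higher in the dense ones, which held most of the sites. With at least 20 reads per site the Hox promoter means were higher in all 4 classes, but in the sparse classes the ranges over animals overlapped. With 0 to 4 CpGs (6 Hox sites) they were 4.98% to 14.75% and 6.48% to 8.90%. With 5 to 9 CpGs they were 3.47% to 5.69% and 3.12% to 3.87%. When each gene counted once, the order turned: 3.07% over 36 Hox promoters and 3.56% over 13053 others (difference -0.487, exact paired permutation p = 4.883e-04). Fewer Hox promoter sites exceeded 20% (0.196%, against 0.796%), while more lay above 5%, since 89.4% of Hox and 97.1% of other promoter sites were below it. The 88 listed developmental homeobox and Pax genes, which encode transcription factors of other families used in the embryo, had a promoter mean of 2.19% ± 0.122. From the sparsest density class to the densest, their promoter means were 6.34%, 6.13%, 3.13% and 1.72%. They too were above the other protein-coding promoters in the dense classes, so this excess was not particular to Hox promoters. With 5 to 9 CpGs they were above the Hox promoters. Hox promoters were 0.371 points higher in 12 of 12 animals (exact paired permutation p = 4.883e-04), but not when promoters reached 2000 bp (0.101 points, p = 0.0693) or when each gene counted once (0.128 points, p = 0.207).

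**Figure D3:**
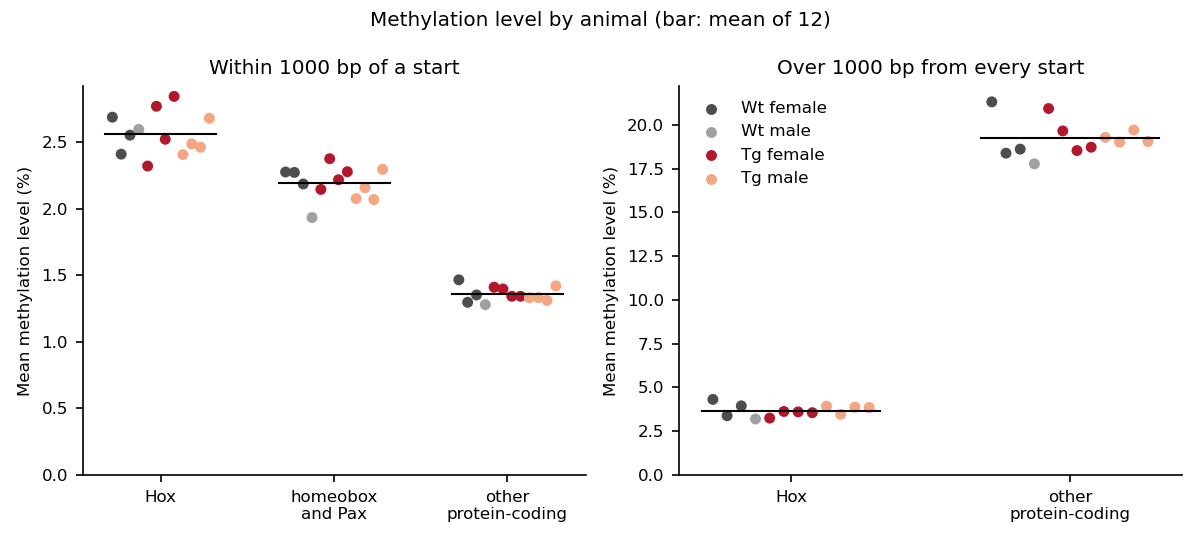
Mean methylation level (%, axes from 0) in each of 12 animals, coloured by genotype and labelled sex, with bars at the mean of 12; the left plot holds sites within 1000 bp of a start and the right plot those over 1000 bp from every start. Hox values are the highest of the promoter sets at a mean of 2.56%, and far below other protein-coding regions away from starts, at 3.67% against 19.2%.

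The promoter levels of the 4 clusters did not differ past the test: 2.80% ± 0.312 for HoxA, 2.43% ± 0.302 for HoxB, 2.52% ± 0.284 for HoxC and 2.44% ± 0.355 for HoxD (SD, n = 12). HoxA was above each of the other clusters by 0.280 to 0.374 points in 9 or 10 of 12 animals, which did not pass the test after adjustment over the 6 pairs (exact paired permutation test, adjusted p = 0.0703 for each). The other 3 clusters differed by at most 0.0943 points. Both the order and the calls turned on the filters: HoxA minus HoxC was -0.377 points with at least 20 reads per site (exact paired permutation test, adjusted p = 0.00391) and 0.718 points when each gene counted once (adjusted p = 0.00293). Promoters of the high-numbered genes (paralogue groups 9 to 13) stood at 2.65% ± 0.246 and those of the low-numbered genes (1 to 3) at 2.65% ± 0.353 (difference 0.00138, exact paired permutation p = 0.986). Counting each gene once gave 3.04% for 16 high-numbered and 4.31% for 6 low-numbered genes (difference -1.27, exact paired permutation p = 4.883e-04). This test runs over animals and does not measure the spread between genes. Of the low-numbered genes, Hoxa3 stood at 8.91% (7 sites) and Hoxb1 at 6.84% (12 sites), and the rest between 2.04% and 3.07%. The high-numbered genes ranged from 1.31% in Hoxb9 to 5.07% in Hoxa9.

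Single gene regions ranged from 1.62% to 5.57%, with a median of 2.80% over the 38 genes. The highest means were those of Hoxb1, a hindbrain gene, at 5.57%, Hoxb5, a gene of the neck and upper trunk, at 5.54%, Hoxa6, a trunk gene, at 5.49%, and Hoxb13, which acts in the tail and prostate, at 5.15%. Hoxb1 ranged over animals from 2.41% to 7.07%, Hoxb5 from 3.503% to 8.99%, Hoxa6 from 4.52% to 6.84% and Hoxb13 from 3.02% to 7.33%. These 4 ranges overlap throughout, so their order is not resolved. The lowest means were those of Hoxa13, needed for digits and the genital tubercle, at 1.62%, Hoxb9, a trunk gene, at 1.75%, Hoxd8, a trunk gene, at 1.82%, and Hoxa4, a neck gene, at 2.04%. Their ranges, from 0.964% to 2.90% for Hoxa13, 1.30% to 2.39% for Hoxb9, 1.22% to 2.30% for Hoxd8 and 1.37% to 2.82% for Hoxa4, overlap too.

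**Figure D4:**
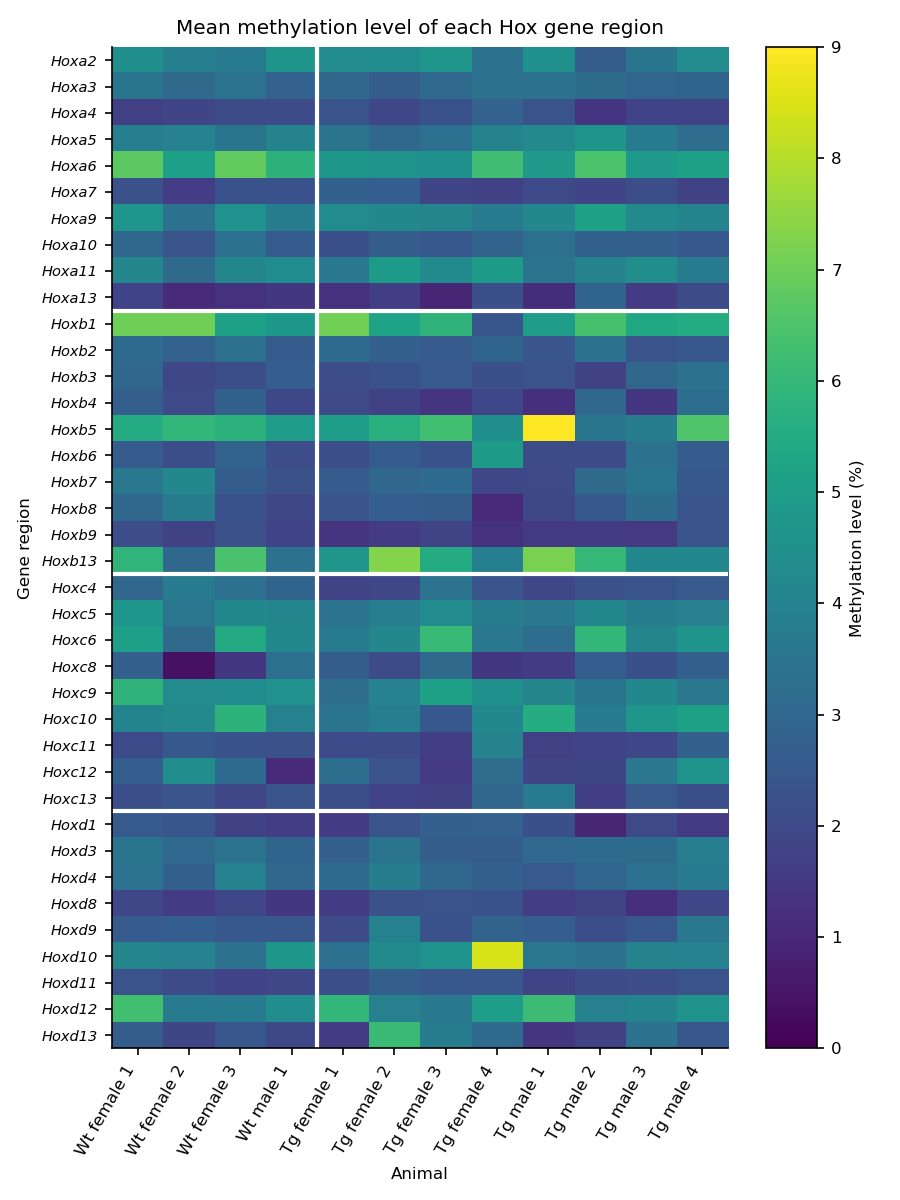
Mean methylation level (%, colour scale from 0 to 9) of the sites covered in all 12 libraries, for each of 38 Hox gene regions (vertical, by cluster and paralogue number) in each animal (horizontal); white lines separate the clusters and the genotypes. Region means run from 1.62% in Hoxa13 to 5.57% in Hoxb1, and in none of the 38 regions do the Wt and Tg ranges stay apart.

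The few methylated sites lay mostly away from the starts in CpG-poor sequence. Of the 47 sites above 20%, 39 were over 1000 bp from a Hox start, 33 had fewer than 10 CpGs in 201 bp, and 3 were in coding sequence. They formed 27 runs, counting sites within 100 bp together. Sequences around 3 of the 6 highest sites and of a longer methylated stretch in Hoxc9 (chosen after its values were seen) are shown because they hold the clearest exceptions to low methylation; in the first 3 lines the measured cytosine is base 31, CpGs are in capitals, and the build is GRCm38.p6:
Hoxa11 flank site, chr6:52246378-52246438, minus strand: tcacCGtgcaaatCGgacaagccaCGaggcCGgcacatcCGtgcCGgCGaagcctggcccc
Hoxa5 downstream site, chr6:52199932-52199992, plus strand: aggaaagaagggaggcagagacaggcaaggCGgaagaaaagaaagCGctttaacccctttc
Hoxb1 coding site, chr11:96365845-96365905, plus strand: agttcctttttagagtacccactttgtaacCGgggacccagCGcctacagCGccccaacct
Hoxc9 intron stretch, chr15:102978900-102979020, plus strand: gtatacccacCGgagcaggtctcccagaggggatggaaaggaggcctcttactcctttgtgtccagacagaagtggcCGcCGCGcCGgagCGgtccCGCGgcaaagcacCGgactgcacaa
The Hoxa11 site lies 598 bp upstream of the start of Hoxa11, a gene of the forearm and uterus, within CCGG. Its level was 100%, 68.8% and 100% in the Wt females, 94.7% in the library labelled Wt male, and from 95.5% to 100% in the Tg animals with a median of 100%. The cytosine of the same CpG on the other strand stood at 7.66%, and the 26 other sites within 120 bp between 0% and 11.4%. So 1 strand of 1 CpG was read as almost fully methylated in every library while its surroundings were not; how this arose was not tested.

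The next highest site, 4625 bp downstream of the start of Hoxa5, a gene of the neck and lung, and in an intron of a longer Hoxa3 transcript, had a mean of 56.8% and 4 CpGs in the 201 bp around it. The Wt values were 52.6%, 33.3% and 61.8% in the females and 27.3% in the library labelled Wt male, and the Tg values ran from 37.8% to 100% with a median of 63.8%. The groups overlapped. The remaining 4 were a site in an untranslated exon of Hoxd3 (33.7%), a coding site of Hoxb1 123 bp after the start (33.3%), a flank site of Hoxb5 (32.9%) and an intron site beside Hoxd4 (31.9%). The Hoxb1 site stood at 46.7%, 40% and 38.2% in the Wt females and 30.2% in the library labelled Wt male, and in the Tg animals between 15.8% and 57.8% with a median of 24.4%. It was the highest of the 3 methylated coding sites.

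In the Hoxc9 stretch, in the intron of a gene that specifies thoracic motor neurons, 12 sites had levels between 11.0% and 29.3%. Over the 8 sites covered in all libraries, the Wt females stood at 38.2%, 19.4% and 25%, the library labelled Wt male at 20.9%, and the Tg animals between 14.7% and 22.3% with a median of 19.9%. Only Wt female 1 and Wt female 3 lay above the Tg range. The difference in means was -6.64 points, and -2.53 points without Wt female 1. By read-weighted difference 11 of the 12 sites were lower in Tg, and by unweighted animal means 8, and 2 of them were called; neighbouring sites share reads, and no test was made of this stretch since it was chosen from the values.

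The next comparison asks whether the Hox clusters differed between Tg and Wt brain. The mean level over the 4048 sites was 3.29%, 2.80% and 3.04% in the Wt females and 2.83% in the library labelled Wt male, and it ran from 2.71% to 3.13% in the Tg animals with a median of 2.96%. Most animals of either genotype lay within the range of the other. The group means were 2.99% ± 0.227 (SD, n = 4) and 2.97% ± 0.141 (n = 8), a difference of -0.0224 points (two-sided exact permutation test over all splits of the animals, p = 0.836; over the splits that keep labelled sexes, p = 0.857), and the permutation interval ran from -0.25 to 0.2 points. Among the females alone the difference was -0.0662 points (35 splits, exact permutation p = 0.743). Within the Tg group, females and males differed by 0.0207 points (70 splits, exact permutation p = 0.8, interval -0.38 to 0.26).

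No Hox gene region passed the test between the genotypes. With limma on the log2 ratio of methylated to unmethylated reads, summed per region and adjusted for sex, 0 of 38 Hox regions and 0 of all 14082 protein-coding regions (0%) had an adjusted p under 0.1. At an unadjusted p under 0.05 there were 0 Hox regions, against 777 of all (5.52%). An overdispersed binomial model on the same sums also gave 0 Hox regions, while it called 2 of all regions (0.0142%). At the unadjusted level it had 1 Hox region, against 860 of all 14082. Among the females alone, limma and the overdispersed model called 0 Hox regions as well. At the unadjusted level limma had 0 Hox regions there, against 589 of all 14082, and the overdispersed model 2, against 688. The median difference was 0.01 on the log2 scale over the Hox regions and 0.06 over all regions, and 20 of the 38 were higher in Tg. The 5 regions with the smallest limma p were Hoxc4 (-0.36, SE 0.23), Hoxc10 (-0.33), Hoxb9 (-0.30), Hoxd13 (0.39) and Hoxc9 (-0.21), with limma adjusted p between 0.917 and 0.925.

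Hoxc4, a gene of the neck and upper trunk, came nearest to a separation. Its region stood at 2.98%, 3.66% and 3.29% in the Wt females and 2.90% in the library labelled Wt male, and between 1.85% and 3.44% in the Tg animals with a median of 2.29%. Of the 8 Tg animals, Tg female 3 lay within the Wt range and the others below it. Hoxc9 stood at 5.87%, 4.34% and 4.36% in the Wt females and 4.57% in the library labelled Wt male, and between 3.23% and 5.15% in Tg, with a median of 4.03%. Hoxc10, active in lumbar motor neurons, stood at 4.08%, 4.23% and 5.82% in the Wt females and 3.96% in the library labelled Wt male, and between 2.48% and 5.56% in Tg. Both overlapped across genotypes. Hoxb9 stood at 2.11%, 1.78% and 2.22% in the Wt females and 1.83% in the library labelled Wt male, and between 1.30% and 2.39% in Tg. Hoxd13, a gene of the digits, stood at 2.66%, 1.87% and 2.45% in the Wt females and 1.94% in the library labelled Wt male, and between 1.43% and 6.14% in Tg, the top value being that of Tg female 2. Neither held the genotypes apart.

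At single sites the binomial model, which counts reads rather than animals as the replicates, called 49 of the 5754 Hox sites (adjusted p under 0.1 and a read-weighted difference of at least 10 points). That is 0.852%, against 4.39% of all 1697156 sites tested. Of the 49, 15 were higher in Tg (0.261%, against 2.39%) and 34 were lower (0.591%, against 2%), so 69.4% of the Hox calls and 45.6% of all calls were lower in Tg. These direction shares were not matched for level or coverage. At 34 of the 49 calls at least 1 library was missing, and at 26 Wt female 2 was missing. The low level of the clusters leaves little room for a difference of 10 points, so the shares of sites called were also taken by level. Of sites below 5%, 0.227% of the Hox sites (11 of 4841) and 0.0756% of all sites were called. Between 5% and 20%, 3.7% of the Hox sites (32 of 866) and 10.9% of all sites were called, and above 20%, 6 of 47 Hox sites (12.8%) and 16.7% of all sites. The calls covered 26 genes, with 5 higher and 13 lower in HoxA, 10 lower in HoxB, 8 higher and 6 lower in HoxC, and 2 higher and 5 lower in HoxD. All 10 calls among the 2660 coding-exon sites were lower, but no like count was made over the coding exons of other genes. The count was 117 among the females alone (2.03%, against 5.35% of all sites), 82 without Wt female 1 (1.43%, against 5.43%), 79 without Wt female 3 (1.37%, against 4.88%) and 15 over sites covered in all 12 libraries (0.371%, against 1.72%).

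None of these calls held in the model that takes the spread between animals into account. With overdispersion, 0 Hox sites and 0 of all sites (0%) had an adjusted p under 0.1, and the smallest adjusted p was 0.512. Among the females alone the model also called 0 Hox sites and 0 of all sites. Its unadjusted p was under 0.05 there at 391 of 5772 Hox sites, against 58763 of 1734781 of all sites. Over all 12 animals its unadjusted p was under 0.05 at 593 Hox sites (10.3%, against 9.42% of all sites). The dispersion, which is 1 where animals differ only by counting error, was not allowed below 1. It is also 1 at any site without a methylated read. Its median was 2.02 over the Hox sites and 1.29 over all. Since the sets differ in level and were not compared at like level, these medians do not show that Hox sites vary more between animals. Of the 4048 sites covered in all 12 libraries, 3 (0.0741%, against 0.0709% of all such sites) had Wt and Tg ranges that did not overlap, and all 3 were lower in Tg. They lay in the flank of Hoxd11 (Wt 4.71% to 6.35%, Tg 0% to 4.55%), in a coding exon of Hoxa5 (Wt 2.38% to 9.38%, Tg 0% to 2.13%) and in an intron within the Hoxc6 region (Wt 14.3% to 30%, Tg 0% to 13.6%). None of these 3 was among the 49 calls, and all were named after their values were seen.

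The 2 strands of a CpG are read from separate reads of the same animals. In the Hox regions 1438 CpGs had both strands covered in all 12 libraries, and the mean levels of the strands lay within 5 points of each other at 98.3% of them. The difference between Tg and Wt had the same sign on both strands at 705 of 1366 CpGs (51.6%, Wilson 95% interval 49.0% to 54.3%, counting error only), against 51% over all autosomal CpGs. Of the 49 called sites, 38 had the other strand covered, and 22 of those had the same sign there. In 1 CpG beside Hoxa2, a hindbrain gene, both strands were called in opposite directions, by -12.8 points on the plus strand and by 11.8 points on the minus strand. In 2 calls the other strand had a difference of 10 points or more with the same sign, 1 in Hoxc9 and 1 upstream of Hoxc10.

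The 12 calls with the smallest unadjusted p in the overdispersed model are given with all their Wt values; in 7 of them Wt female 2 had fewer than 10 reads and was dropped from the fit. Sequences of 4 of these are shown, the 2 in which the groups did not overlap, 1 that was higher in Tg and 1 in the methylated stretch of Hoxc9, with the measured cytosine at base 31, CpGs in capitals and GRCm38.p6 as the build:
Hoxa4 site, chr6:52191025-52191085, minus strand: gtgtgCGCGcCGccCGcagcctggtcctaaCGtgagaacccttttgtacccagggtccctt
Hoxa6 site, chr6:52208867-52208927, plus strand: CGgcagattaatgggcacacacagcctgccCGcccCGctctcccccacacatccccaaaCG
Hoxd3 site, chr2:74749264-74749324, minus strand: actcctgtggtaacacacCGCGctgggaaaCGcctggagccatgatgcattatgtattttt
Hoxc9 site, chr15:102978953-102979013, minus strand: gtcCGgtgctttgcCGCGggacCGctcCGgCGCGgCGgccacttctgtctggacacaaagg
The Hoxa4 site, in an intron 698 bp after the start of Hoxa4, had the smallest p of the overdispersed model (0.000313 unadjusted, adjusted p 0.512). It stood at 13.3% and 18.9% in Wt females 1 and 3 and 10.3% in Wt male 1 (30 to 53 reads each), and at 0% in all 8 Tg animals, a read-weighted difference of -14.8 points (binomial adjusted p = 1.77e-06). The Hoxa6 site, just upstream of the start of Hoxa6, stood at 16%, 7.55% and 8.70% in the same 3 Wt libraries and at 0% in the 7 Tg libraries that covered it. The groups did not overlap at either site, nor at the called sites of Hoxb4 (8.33% and 13.3% in 2 Wt libraries, 0% in 7 Tg libraries) and of the Hoxd11 flank (10.5% to 26.7% in 3 Wt libraries, 0% to 8.62% in 7 Tg libraries). These were 4 of the 49 calls, and the share over all called sites was not taken. With only 2 or 3 Wt libraries, ranges stay apart more easily. Another called site on the same strand, within the bases shown for Hoxa4, did overlap. It stood at 0%, 20.8% and 10.3% in the same 3 Wt libraries and between 0% and 16.7% in Tg. The other strand did not follow: the difference there was -0.515 points at the Hoxa4 site and 2.45 points at the Hoxa6 site.

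At several of these sites 1 or 2 Wt libraries carried the difference. A Hoxa10 intron site stood at 34.1% in the library labelled Wt male and at 0% in the other Wt and all 6 Tg libraries covering it, so the difference of -14.4 points became 0 without that library. A coding site of Hoxb2, a hindbrain gene, stood at 21.3% in Wt female 1, at 27.3% in the library labelled Wt male, at 0% in the other Wt libraries, and between 0% and 2.56% in Tg. A site 1272 bp upstream of Hoxb9 stood at 12.5%, 0% and 21.1% in the 3 Wt libraries and at 0% in the 8 Tg animals. A site in an untranslated exon of Hoxa10, a gene of the uterus and hindlimb, stood at 25.7%, 3.12% and 23.7% in Wt and between 0% and 5.71% in Tg. A site 1150 bp upstream of Hoxc10 stood at 0%, 15% and 25.9% in Wt and between 0% and 6.67% in Tg. The Hoxb2 difference of -15.7 points became -9.33 without Wt female 1, and that of the untranslated Hoxa10 site, -13.1 points, became -23.2 without Wt female 3. The Hoxc10 difference of -10.8 points became -18.2 without Wt female 1 and -6.22 without the library labelled Wt male. At the last 4 sites at least 1 Wt library lay within the Tg range.

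The other calls were less often at 0. A coding site of Hoxb5 stood at 9.80%, 22.6% and 25% in the Wt females, at 10% in the library labelled Wt male and between 0% and 14.3% in Tg, with a median of 0%. The Hoxc9 site lies in the methylated stretch described above and stood at 50%, 27.8% and 41.2% in the Wt females, at 40% in the library labelled Wt male, and between 15.4% and 30% in Tg with a median of 26.6%. Its difference of -15.8 points (binomial adjusted p = 0.00888) came with -10.4 points on the other strand. Of the 8 Tg animals 3 reached the Wt range.

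Of the 12, 3 were higher in Tg. A site in an untranslated exon of Hoxc5, a gene of the neck, stood at 8.70%, 18.2% and 9.52% in the Wt females, at 7.14% in the library labelled Wt male and between 11.8% and 44.4% in Tg with a median of 26.3%. The Hoxd3 site, in the flank of a gene that shapes the first neck vertebrae, stood at 0% in all 4 Wt libraries, whose depth was 10 to 39 reads, and between 0% and 35.7% in Tg with a median of 11.2%. At this site the values followed labelled sex within Tg: the females stood at 0%, 8.16%, 0% and 0%, and the males at 14.3%, 26.7%, 35.7% and 32%. This pattern was noticed after the values were seen. The difference between the genotypes was 13.9 points over all animals and 2.42 points among the females. A second called site nearby on the same strand, not among the 12, did not follow labelled sex. There the Tg females stood at 7.14%, 26.7%, 0% and 0%, and the Tg males at 0%, 23.3%, 7.41% and 20.4%. A site 2055 bp upstream of the start of Hoxa9, a gene of blood progenitors, stood at 0% in the 3 Wt libraries and between 0% and 21.4% in Tg with a median of 12%. None of the 3 among the 12 held the groups apart, and on the other strand the Hoxc5 site differed by 1.48 points and the Hoxa9 site by -3.84 points. Among the females alone, the differences at the 12 sites ran from -16.9 to 19.6 points, and besides the Hoxd3 site they were under 10 points in size at the first Hoxa10 site (0), the Hoxb9 site (-8.33), the Hoxa10 site in the untranslated exon (-9.88) and the Hoxc10 site (-7.41).

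**Figure D5:**
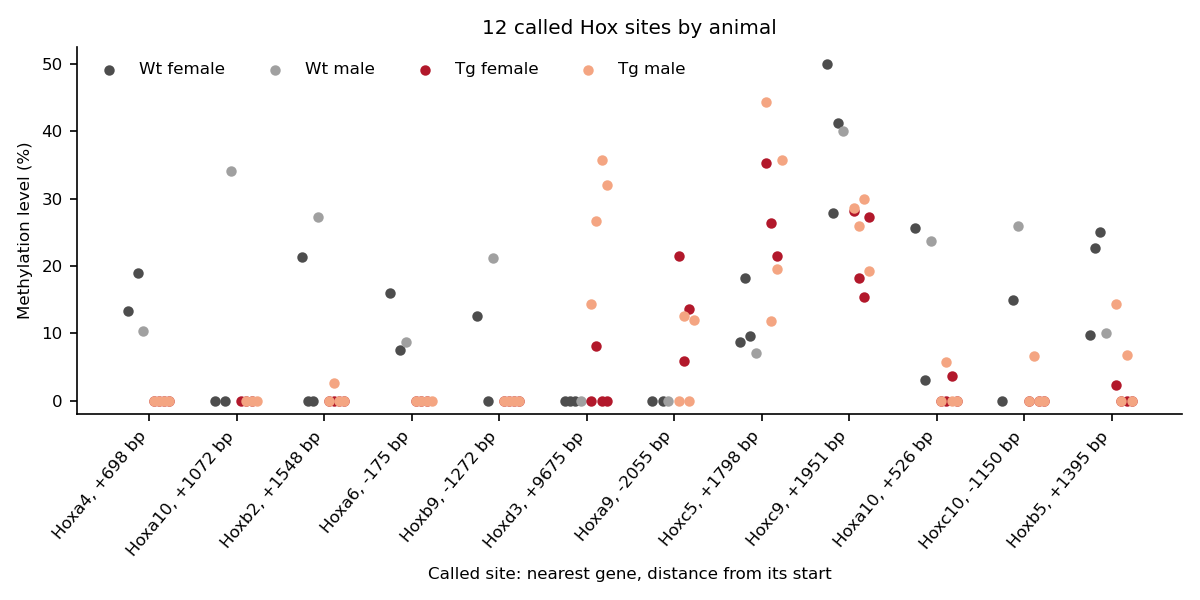
Methylation level (%, linear axis) at 12 called Hox sites in each animal with at least 10 reads, coloured by genotype and labelled sex; the horizontal axis names the nearest gene and the distance from its start (bp, + after and - before it). Tg animals sit at 0% at the Hoxa4, Hoxa6, Hoxb9 and first Hoxa10 sites, and the Wt libraries spread from 0% to 34.1% there.

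Genes that act with or on the Hox clusters were examined in the same limma fit, in which no protein-coding region was called. All lists had 0 called regions. Of the 9 Hox cofactors, homeodomain partners that bind DNA together with Hox proteins, 5 were higher in Tg with a median of 0.05 on the log2 scale, and Pbx2 had the smallest p (0.49, SE 0.21, limma adjusted p = 0.897). Of the 24 Polycomb and Trithorax genes, which keep Hox genes silent or active, 18 were higher, with a median of 0.20, and Phc3, a Polycomb subunit, had the smallest p (1.08, SE 0.47, limma adjusted p = 0.897). Of 15 retinoic acid pathway genes, which carry the signal that turns on low-numbered Hox genes in the embryo, 13 were tested and 10 were higher, with a median of 0.16, and Aldh1a3, an enzyme of retinoic acid synthesis, had the smallest p (0.58, SE 0.23, limma adjusted p = 0.897). Of the 88 homeobox and Pax genes 87 were tested and 59 were higher, with a median of 0.09, and Phox2a, a regulator of noradrenergic neurons, had the smallest p (0.50, SE 0.21, limma adjusted p = 0.897). These medians stand beside the 0.06 of all regions.

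The non-coding RNAs of the clusters lie within the same stretches of DNA. Of 17 listed, 16 were in the annotation and 14 had at least 5 sites within 2 kb, with mean levels between 1.01% and 8.99%. The highest was Hotairm1, transcribed at the low-numbered end of HoxA, with 34 sites, of which 3 exceeded 20%. The lowest was Hottip, at the other end of HoxA, with 24 sites at 1.01%; none of these is in the RNA itself, and all 24 are also sites of the Hoxa13 promoter. These 2 were chosen as the ends of the range. Sites of Hotairm1 and of the Hoxa2 flank are partly the same.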

How the data were processed

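The authors had RRBS libraries made from 12 brains, sequenced them in paired-end mode, aligned the reads with Bismark to mm10 and read them into methylKit; tool versions are not given in the sources used here. The deposited values are read counts per CpG cytosine (coverage, methylated and converted), 1 table per animal, strands apart, at 10 or more reads. Positions were checked against GRCm38.p6, and 99.9% were CpG. The members and gene lists were chosen with earlier results of these data known. Genes were named by fixed rules: the 4 highest and 4 lowest regions, the 5 regions with the smallest limma p, the 6 highest sites, and 12 called sites in order of the overdispersed p, 1 per 1000 bp; others are said to have been chosen after their values were seen. One gene that the rule covers is not reported here.

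Site counts were fitted by logistic regression (genotype and labelled sex, likelihood-ratio test) and, as the alternative, with overdispersion (F test), with Benjamini-Hochberg adjustment over all sites; a site was called at an adjusted p under 0.1 and a read-weighted difference of at least 10 points. Counts summed per gene region (body and 2 kb, at least 5 sites in all 12 libraries, pseudocount 1) were tested with limma 3.58.1 in R 4.3.3 (trend, eBayes). Mean levels, unweighted over sites, were compared by exact permutation over animals (Python 3.11.15, numpy 2.4.6, scipy 1.17.1). Programs were tested on simulated data. Nothing in the labels says whether animals were handled in batches.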

Additional observations from a re-analysis of the deposited data

Results flagged for a closer look

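Of the values given by animal, 63 groups of 4 to 8 animals were screened with Dixon's criterion, which chance meets in about 1 of 20: the cluster and promoter means, the 12 named gene regions and the named sites. In 7 groups 1 animal stood apart from the others. At Hoxb1, a hindbrain gene with 27 sites, Tg female 4, the shallowest library, stood at 2.413% while the other Tg animals lay between 4.98% and 7.07%. At Hoxc4, Tg female 3 stood at 3.444% and the other Tg animals between 1.85% and 2.50%. At Hoxc10, Wt female 3 stood at 5.818% and the other Wt libraries between 3.96% and 4.23%. At Hoxc9, Wt female 1 stood at 5.87% and the others between 4.34% and 4.57%. At the methylated site upstream of Hoxa11, Wt female 2 stood at 68.8% from 16 reads and the other Wt libraries between 94.7% and 100%. At the called coding site of Hoxb2, Tg male 2 stood at 2.56% from 39 reads and the other Tg animals at 0%. At the called site upstream of Hoxc10, Tg male 2 stood at 6.67% from 15 reads and the other Tg libraries covering it at 0%. Where all other animals stand at 0%, any value above 0% meets the criterion. The rate of 1 of 20 therefore does not apply to the Hoxb2 and Hoxc10 sites. The cause was not tested in any of these.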

How the results depend on the processing

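The low level away from promoters kept its direction and its call in all 16 alternatives, but its size ran from -2.67 points with at least 20 reads, through -10.62 read-weighted and -21.37 with promoters of 2000 bp, to -35.94 over genes (-15.67 to -15.39 without 1 library each), and no setting called a Hox gene region (0 to 0 without 1 library each). The Tg minus Wt difference in mean level changed sign with read weighting (0.03092), with all sites each library covered (0.002018), without Wt female 1 (0.07749) and without Tg female 1 (0.01369); leaving out 1 library gave -0.08553 to 0.07749. The female minus male difference within Tg ranged from -0.03018 to 0.1083, with -0.02151 without Tg female 2 and -0.008551 without Tg male 2. With each gene counted once, Hox promoters were lower than other promoters (-0.4869; without 1 library each, 1.178 to 1.232), the excess over homeobox and Pax promoters was 0.1279 (0.1013 with promoters of 2000 bp; 0.3449 to 0.3927 without 1 library each), and the high minus low paralogue difference was -1.273 (0.2249 with 2000 bp). That difference ranged from -0.06263 to 0.0649 without 1 library each, with -0.009731 without Wt male 1, -2.938e-04, -0.002575 and -0.02456 without Tg female 1, 3 and 4, and -0.008131 and -0.01123 without Tg male 3 and 4.

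The order of the clusters depended on the filters. HoxA minus HoxB was 0.3915 with at least 20 reads and 0.6206 over genes (0.2846 to 0.4783 without 1 library each). HoxA minus HoxC was -0.2274 with 2000 bp, -0.3772 with 20 reads and 0.7177 over genes (0.235 to 0.3358). HoxA minus HoxD was 0.3844, -0.1989 and 0.8888 in the same order (0.2773 to 0.4392). HoxB minus HoxC was -0.45, -0.7687 and 0.0971 (-0.1424 to -0.03217). HoxB minus HoxD was 0.1618, -0.5904 and 0.2682 (-0.09089 to 0.07261, with 0.04914, 0.01405 and 0.07261 without Tg female 2, 3 and 4). HoxC minus HoxD was 0.6118 with 2000 bp (0.006516 to 0.1819). The cause of these shifts was not tested.

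Called Hox sites numbered 49 (0.852%, against 4.39% of all sites). There were 0 with overdispersion, 0 with overdispersion over sites in all 12 libraries and 0 with overdispersion in females only. The last 2 were chosen after seeing the data, as was the overdispersed model for regions in females. At 25 points 0 Hox sites were called, against 0.479% of all sites. With 20 reads 31 of 4727 were called (0.656%, against 1.85%), and in all 12 libraries 15 (0.371%, against 1.72%). Females only gave 117 (2.03%, against 5.35%), and both strands summed 13 of 3431 (0.379%, against 5.08%). Leaving out 1 library gave 57 to 82 (0.986% to 1.43%, against 3.76% to 5.43% of all sites). The count was 82 without Wt female 1 and 79 without Wt female 3. The share of CpGs with the same sign on both strands was 48.93% with at least 20 reads. Most Hox levels rest on few methylated reads, since a level of 2% at the median depth of the shallowest library is less than 1 read. No paired analysis was possible because replicate numbers were given in record order and pair no animals.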
